A study of Arabidopsis thaliana with 44 samples.

Results

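The sites described here are adenosines of Arabidopsis transcripts that the authors listed as m6A sites although their neighbouring letters match neither RAC (A or G before the site and C after it) nor GAT (G before the site and T after it). They were taken by a fixed rule from the deposited motif of 5 letters, whose 3rd letter is the site. Every listed site on chromosomes 1 to 5 in the CDS or the 3' UTR was kept unless its letters were those of RAC or GAT. Beyond the authors' listing no fraction or mark was used for the choice. In the tissue series, however, every site kept had the authors' mark for a passed call in at least 1 tissue. The fractions below are therefore those of sites selected by that mark. The rule gave 54681 of 188282 listed sites of the tissue series, next to 88811 RAC and 31668 GAT sites in the same regions. Of these other-motif sites 16961 were in 3' UTRs and 37720 in the CDS, and they lay in 14847 of the 19152 genes with a listed site of any motif in these regions. In the mta experiment 8689 of 50458 listed sites were other-motif sites, and 4457 sites were in both tables.

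The tissue series held 9 tissues of Col-0 plants: seedling (7 days), shoot and root (14 days, on plates), rosette leaf (30 days, on soil), cauline leaf, stem, flower, silique and dry seed. The mta experiment set ABI3::MTA/mta seedlings (8 days) beside Col seedlings, for which the sources used here give no harvest day. In the mta line the ABI3 promoter, which is active in embryos, drives MTA and carries the plant past the embryo, so MTA transcripts counted there include those of the transgene. Each tissue and genotype had 2 biological replicates, each with a library treated with MjDim1 and an untreated input library, 44 libraries in all. For each tissue or genotype a site carries 1 fraction and 1 depth, pooled over both replicates. A difference between tissues or genotypes at 1 site therefore has no replicate check, and the tissue is the unit in every test.

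m6A is written into mRNA by a complex whose catalytic subunit in plants is MTA, with MTB, FIP37, VIR and HAKAI as partners, and this complex favours RRACH sequences. FIO1, the plant ortholog of METTL16, methylates U6 snRNA and a small set of other RNAs in another sequence. URUAY has been described as a plant motif near m6A, and ECT2, ECT3 and ECT4 are YTH proteins that bind m6A. In m6A-SAC-seq the enzyme MjDim1 puts an allyl group on m6A, which after cyclization is read as a mutation at that base. Enzymes of the Dim1 family act in the cell on adenosines in the loop of a hairpin of small-subunit rRNA. Spike-in probes with known fractions served to turn mutation rates into fractions for each motif.

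Classes of other-motif sites are named by the letter before the site, the site and the letter after it, so that a TAC site has T before the A and C after it. The following 6 sites stand for the classes on which most values rest. Each has the highest mean fraction of its class among sites marked in all 9 tissues, except that the GAG site is the highest of 3' UTRs only. Each line gives 21 letters of the transcript strand in TAIR10, with the 5 letters of the motif in capitals and the site in their middle.
AT4G14320, TAC, 3' UTR, chr4:8242615-8242635, minus strand: ctgcttcaATACTgtgatata
ERMO2, AAT, 3' UTR, chr3:2245363-2245383, minus strand: cctaaccaGAATGgttatctc
AT5G53850, GAG, 3' UTR, chr5:21861112-21861132, minus strand: tttcttatGGAGTtgcaattg
CIPK26, GAA, CDS, chr5:7221551-7221571, plus strand: ccggaaaaCGAAAggggatac
HMG1, AAG, CDS, chr1:28696812-28696832, plus strand: accgttctTAAGGacggtatg
DHAR1, TAG, CDS, chr1:6773931-6773951, minus strand: cttggacaTTAGTcctcaagg

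A second set of 6 shows an inverted repeat around the site that is described further below. Here the capitals mark letters that pair by Watson-Crick rules across a loop of 4 letters, and the site is the last letter of that loop.
mMDH1, TAC, 3' UTR, chr1:19854942-19854962, minus strand: aACCGAGtttaCTCGGTaatt
AT1G18540, TAC, CDS, chr1:6377496-6377516, minus strand: ctCAAGGtttaCCTTGgagcc
AT5G60980, TAC, CDS, chr5:24544432-24544452, plus strand: GACAAAGgataCTTTGTCtta
TOM22-V, CAC, CDS, chr5:17693022-17693042, plus strand: gcTCCGGagcaCCGGAaaagc
DHAR1, TAG, CDS, chr1:6773931-6773951, minus strand: cttGGACattaGTCCtcaagg
ECT2, AAG, CDS, chr3:4387855-4387875, minus strand: cgccAGCaaaaGCTtcagaga

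Treated libraries of the tissue series held 10382637 to 14693950 reads in genes and input libraries 3355823 to 6903234. Other-motif sites had their lowest median depth in rosette leaf, 60 reads, and their highest in root, 117 reads. Of the 54681 sites 54083 reached 20 reads in at least 1 tissue, 25934 did so in all 9, and 51392 carried the authors' mark for a passed call in at least 1 tissue at that depth. Marker genes were highest in the tissue of their label for flower, stem, rosette leaf and seed or silique. Of the 4 root markers PLT1 and SHR were highest in root, while SCR was highest in seedling and NRT2.1 in stem. The tissues were bulk samples, in which fewer cells of a type and less RNA per cell cannot be told apart. MTA was at 3.74 and 2.98 TPM in the mta input libraries, against 5.94 and 5.99 TPM in those of Col.

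The letters around the site differed between the 2 regions of the transcript. In 3' UTRs the TAC class (6055 sites, 35.7%) and the AAT class (4990 sites, 29.4%) made up most other-motif sites, followed by the GAG class (2738 sites, 16.1%). In the CDS the GAG class (14061 sites, 37.3%) and the GAA class (9711 sites, 25.7%) led, followed by the AAG class (4837 sites, 12.8%), and TAC sites made up 7.41%. Of all AAT sites 78.2% were in 3' UTRs, but only 9.54% of all GAA sites and 12.5% of all AAG sites. Relative to the adenosines with the same neighbours in the transcripts of the same genes, 11.2 per 1000 other-motif adenosines of 3' UTRs were listed, against 252 per 1000 RAC and 114 per 1000 GAT adenosines. The rate was 83.4 per 1000 for the TAC class and 28.3 per 1000 for the AAT class, and as low as 0.204 per 1000 for the CAA class. In the CDS it was 6.26 per 1000 for other motifs, against 72.1 for RAC and 32.7 for GAT, with 24.6 for the GAG class and 9.73 for the TAC class. A listed site had passed the authors' calling in at least 1 tissue, so these rates depend on that calling as well.

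In 3' UTRs the other-motif sites had a lower fraction than RAC sites and a higher one than GAT sites in each of the 9 tissues. Their median fraction was 0.218 in seedling, 0.209 in shoot, 0.219 in root, 0.177 in rosette leaf, 0.266 in cauline leaf, 0.210 in stem, 0.256 in flower, 0.239 in silique and 0.250 in seed. The lowest value of RAC in any tissue, 0.403, was above all of these. Over the tissues the median was 0.227 ± 0.0281 for other motifs, 0.451 ± 0.0319 for RAC and 0.173 ± 0.0202 for GAT (SD, n = 9 tissues). The difference was -0.224 ± 0.0120 from RAC and 0.0540 ± 0.0172 from GAT. With marked sites only the difference from RAC was -0.0317 and did not pass (exact permutation test, adjusted p = 0.0608). With all listed sites both differences had an adjusted p of 0.00390625 in a two-sided exact sign-flip permutation test, the smallest p that 9 tissues allow. The 14 comparisons with RAC or GAT in medians, shares in the 3' UTR and shares at a fraction of 0 or 1 all kept 1 direction in 9 of 9 tissues, so that each had this p, adjusted over the 14. For the shares in the 3' UTR the tissues compare nearly the same list of sites each time. The medians and the shares at 0 and 1 also draw on that list, with 25934 other-motif sites at 20 reads in all 9 tissues. The tissues are thus not independent samples of sites, and the p speaks to agreement between tissues only.

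In the CDS the medians of the 3 groups lay close together. The median fraction of other-motif sites was 0.0886 in seedling, 0.0903 in shoot, 0.0388 in root, 0.0425 in rosette leaf, 0.101 in cauline leaf, 0.0603 in stem, 0.0767 in flower, 0.122 in silique and 0.0517 in seed. It was highest in silique and lowest in root, as were the CDS medians of RAC (0.156 and 0.0707) and GAT (0.135 and 0.0487). Silique also had the most marked CDS other-motif sites, 12241, against 3183 in root, and a site is listed once marked in any tissue. With marked sites only, the median of other motifs was lowest in silique, 0.215, and was 0.535 in root. RAC kept its order, at 0.234 and 0.174. The part of the listing in the order of tissues was not tested. With all listed sites the median over the tissues was 0.0747 ± 0.0284 for other motifs, against 0.114 ± 0.0285 for RAC and 0.0887 ± 0.0283 for GAT (SD, n = 9 tissues). The differences of -0.0393 ± 0.00487 from RAC and -0.0140 ± 0.00228 from GAT had the same direction in every tissue. The direction depended on the measure. With the mean over sites in place of the median, other-motif sites were higher by 0.0223 than RAC and by 0.0775 than GAT (exact permutation test, adjusted p = 0.00390625 for both). They were also higher by 0.145 and 0.197 when only marked sites were used, and by 0.0882 and 0.120 when only sites of both tables were used.

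**Figure D1:**
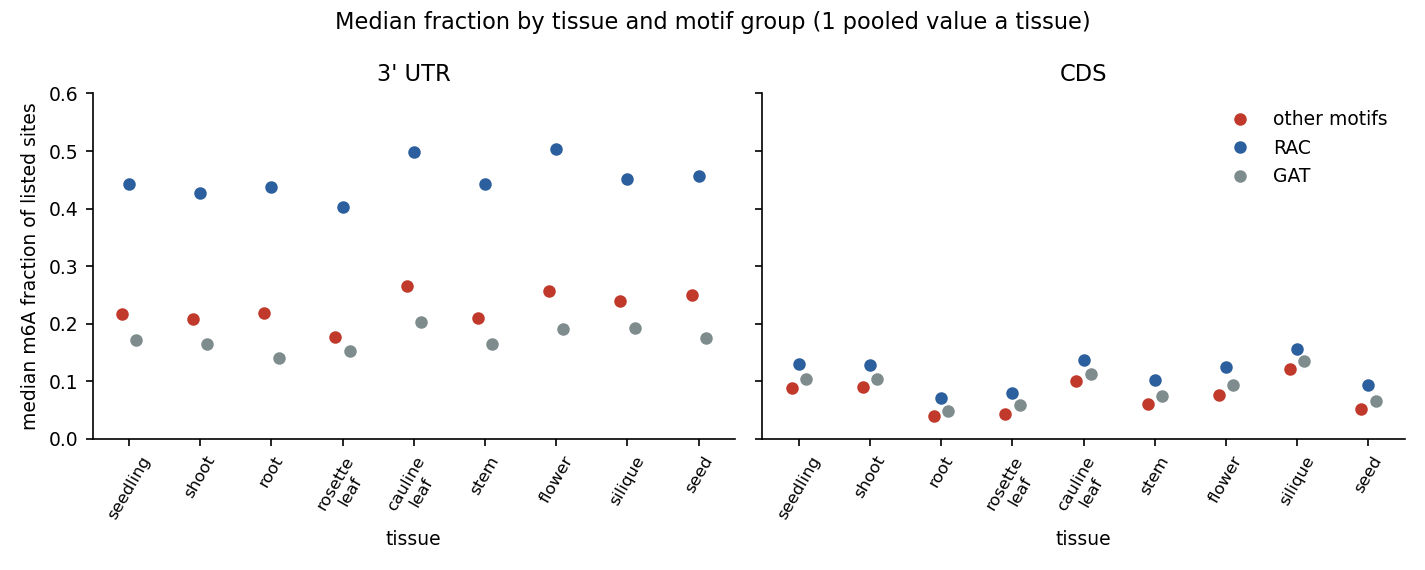
Median m6A fraction (vertical axis, from 0 to 1 in principle) of listed sites covered by 20 reads or more, in each of the 9 tissues, in 3' UTRs (left) and the CDS (right). Each point is 1 pooled value of a tissue for other motifs, RAC or GAT. In 3' UTRs other motifs sit between RAC and GAT in every tissue, and in the CDS they sit just under both.

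The share of sites in 3' UTRs was 31.8 ± 1.25% for other motifs, 36.3 ± 2.26% for RAC and 35.8 ± 2.31% for GAT over the 9 tissues. The difference was -4.48 percentage points from RAC and -4.00 from GAT, negative in 9 of 9 tissues (exact permutation test, adjusted p = 0.00390625). Over the whole list, without the depth minimum, the shares were 31.0%, 39.7% and 38.9%. The region of a site is the same in every tissue, and most sites were read in most tissues. The 9 tissues thus largely repeat 1 comparison of the list, and the p adds little to it. Within 3' UTRs the position was nearly that of RAC sites. Other-motif sites lay a median of 115 nt after the stop codon with quartiles at 68 and 172 nt, against 117 nt for RAC and 121 nt for GAT. The density of listed sites was highest between 50 and 100 nt after the stop codon, with 18.9 sites per 1000 other-motif adenosines and 413 per 1000 RAC adenosines. CDS sites lay a median distance before the stop codon of 571 nt for other motifs and 559 nt for RAC. The classes differed among themselves, since GAA sites of 3' UTRs lay a median of 79 nt after the stop codon and AAT sites 122 nt.

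**Figure D2:**
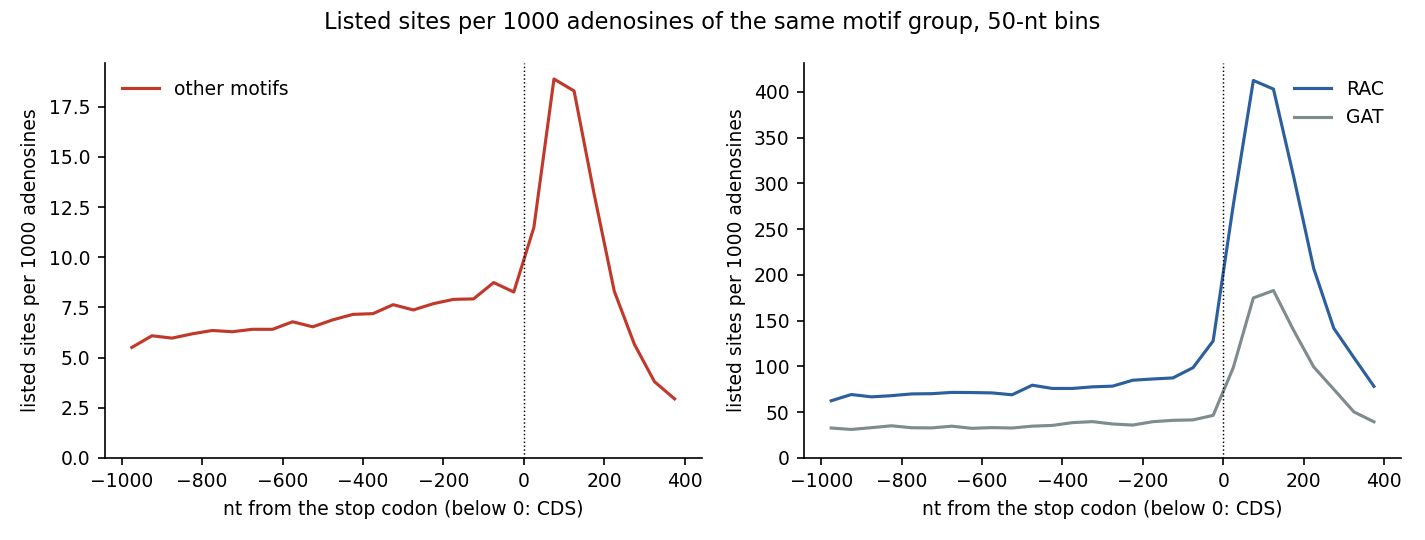
Listed sites per 1000 adenosines of the same motif group (vertical axes, which differ in scale) against the distance from the stop codon in nt (horizontal axis, negative in the CDS) in bins of 50 nt, for other motifs (left) and for RAC and GAT (right). Other motifs reach 18.9 per 1000 in the bin from 50 to 100 nt after the stop codon, where RAC reaches 413 per 1000.

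Some other-motif sites were neighbours of a RAC or GAT site. In 3' UTRs 9.40% of them (1595 sites) lay within 5 nt of a listed RAC or GAT site of the same gene, and 4.58% of RAC sites lay that close to another such site. For CDS sites the share was 4.86% (1833 sites), against 2.03% of RAC sites. The AAA class of 3' UTRs stood out, with 170 of 302 sites (56.3%) directly beside a listed RAC or GAT site. An example is the site of AT5G57290 (chr5:23206903-23206923, minus strand), at a fraction of 1.00 in all 9 tissues and 1 nt from a RAC site. Whether the mutation read at such a site belongs to its neighbour was not tested.

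The 13 classes spread widely, and the order differed between the regions. In 3' UTRs the TAC class was at 0.443 ± 0.0329, and its difference from RAC of -0.00759 ± 0.0182, positive in 3 of 9 tissues, did not pass (exact permutation test, adjusted p = 0.265 over 26 class tests). At a depth of 50 reads or more it was 0.0149 and passed (exact permutation test, adjusted p = 0.0277). TAC medians ran from 0.391 in rosette leaf to 0.487 in cauline leaf. The small CAC class (167 sites) was at 0.442, with a difference of -0.00925 (exact permutation test, adjusted p = 0.821). All other classes of 3' UTRs were lower than RAC, but with marked sites only 8 of the 11 classes that could be run, TAC and AAG among them, were higher, while AAT and the 2 classes with G before the site stayed lower. CAA and CAT had under 10 marked sites in every tissue and were not run, and CAG rested on 2 tissues. The AAT class was at 0.253 ± 0.0234 (difference -0.198, exact permutation test, adjusted p = 0.00635) with its lowest median in shoot (0.214) and its highest in cauline leaf (0.294). The GAG class was at 0.0820 and the GAA class at 0.0614, each below RAC in 9 of 9 tissues (exact permutation test, adjusted p = 0.00635).

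In the CDS other classes were on top. The TAG class had a median of 0.340 ± 0.122, higher than RAC by 0.226, and the AAG class one of 0.322 ± 0.113, higher by 0.208 ± 0.0845, each in 9 of 9 tissues (exact permutation test, adjusted p = 0.00635). AAG medians were 0.376 in seedling, 0.394 in shoot, 0.169 in root, 0.185 in rosette leaf, 0.420 in cauline leaf, 0.277 in stem, 0.336 in flower, 0.503 in silique and 0.240 in seed. TAG medians had the same lowest and highest tissues, 0.180 in root and 0.550 in silique. The AAA class was also higher than RAC, by 0.0469 in 9 of 9 tissues, and the CAC class by 0.105 in 7 of 9 (exact permutation test, adjusted p = 0.0406). The TAC class, at 0.162, was higher than RAC in 8 of 9 tissues but did not pass (difference 0.0478, exact permutation test, adjusted p = 0.0508). It passed with 0.0916 at 50 reads or more and with 0.716 with marked sites only. Its median was 0 in rosette leaf and 0.131 to 0.244 in the other tissues. The GAG class (0.0594) and the GAA class (0.0673) were lower than RAC in 9 of 9 tissues, with differences of -0.0545 and -0.0466. These 2 classes held 63.0% of CDS other-motif sites, and the median of all other motifs followed them.

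**Figure D3:**
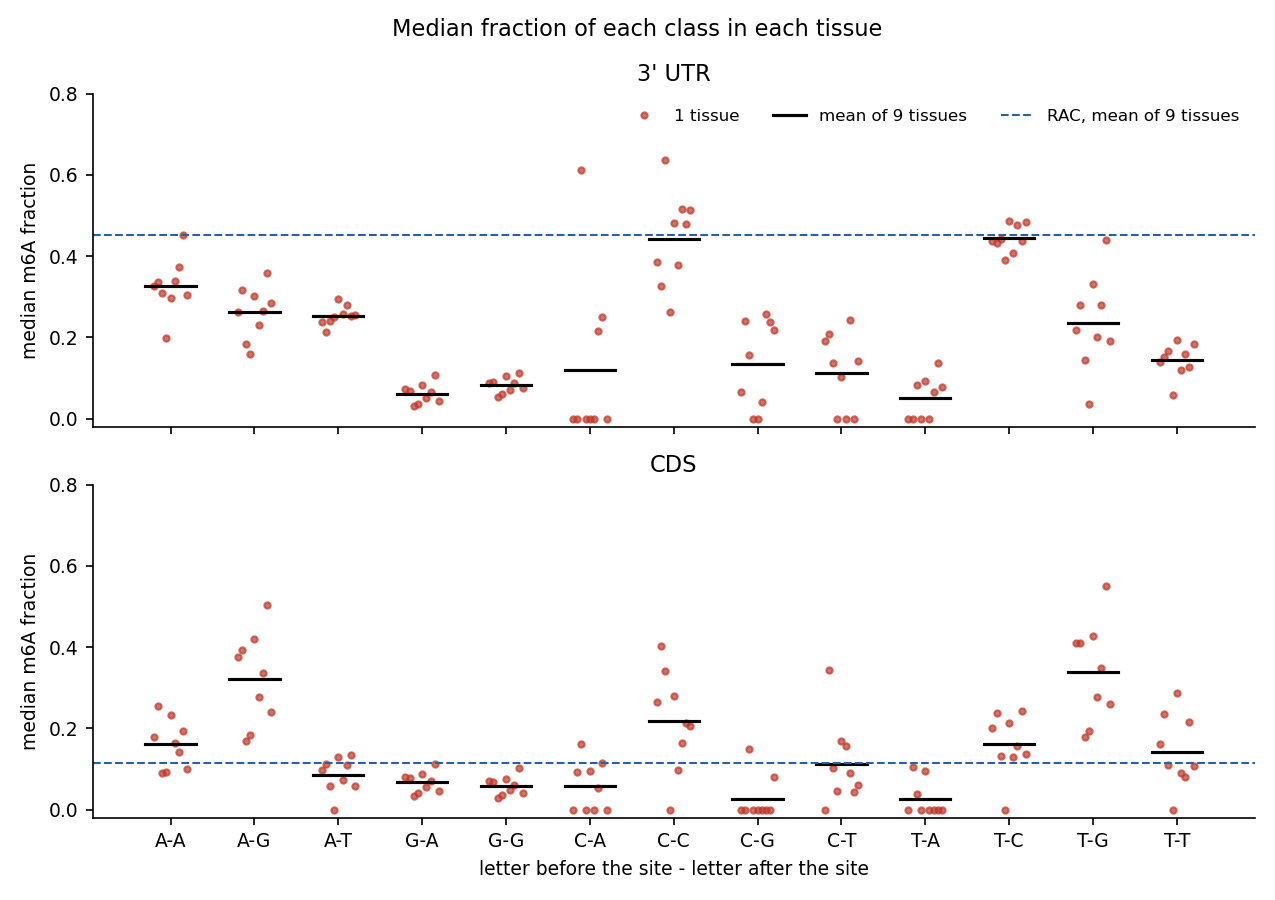
Median m6A fraction (vertical axes) of each of the 13 classes of other motifs, written as the letter before and the letter after the site, in 3' UTRs (top) and the CDS (bottom). Points are the 9 tissues, black bars their mean, and the dashed line the mean of RAC. The mean of T-C (TAC), 0.443, lies next to the RAC line in 3' UTRs, and A-G (AAG) and T-G (TAG) lie above it in the CDS.

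Fractions of exactly 0 were more frequent at other-motif sites, and fractions of exactly 1 set them apart from GAT. A fraction of 0 was read at 21.4 ± 4.55% of them in 3' UTRs, against 6.48 ± 1.96% for RAC and 2.50 ± 1.19% for GAT. In the CDS it was read at 23.5 ± 5.61%, against 9.97 ± 3.56% and 6.51 ± 3.44%. Rosette leaf had the highest share at 0 in both regions, 30.3% and 35.7%. A fraction of 1 was read at 9.28 ± 0.941% of other-motif sites in 3' UTRs, against 17.3 ± 1.68% for RAC and 0.0907% for GAT. Within the CDS the order of the first pair turned, with 5.08 ± 1.74% for other motifs, 0.951 ± 0.329% for RAC and 0.00216% for GAT. All 8 differences had an adjusted p of 0.00390625 in the exact permutation test (n = 9 tissues). With marked sites only the difference from RAC in the share at 1 in 3' UTRs was -0.165 percentage points and did not pass, and the shares at 0 had no difference, since no marked site is at 0. Sites at the ends of the scale were shallower. In 3' UTRs the median depth was 43 reads at a fraction of 0, 52 reads at a fraction of 1 and 104 reads between them. At 200 reads or more 3.73% of values were at 1 and 3.07% at 0 in 3' UTRs, with 3.10% and 4.49% in the CDS. The mark was on 82.2% of the values at 1 in 3' UTRs and on 79.7% in the CDS, and on no value at 0.

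The ends of the scale were also reached by 1 site in different tissues. Among other-motif sites with at least 20 reads in all 9 tissues, 1819 of 8595 in 3' UTRs (21.2%) and 2099 of 17339 in the CDS (12.1%) had a fraction of 0 in one tissue and of 1 in another. Among RAC sites the shares were 6.51% and 0.880%. The classes differed sharply in this. It was the case for 354 of 473 CAG sites of the CDS (74.8%), for 35.4% of TAC sites of 3' UTRs and 28.0% of those of the CDS. It was the case for none of the 5867 GAG sites of the CDS, which allows a share of up to 0.0511%, and for none of the 4467 GAA sites there, which allows up to 0.0672%. A fraction of 1 was read at a mean of only 0.00104% of GAG and 0.00451% of GAA sites of the CDS over the tissues. Classes that hardly reach 1 can hardly show this pattern, so its absence says nothing about their variation between tissues. The limits cover counting error only. Fractions were scaled by probes for each motif, and the part of that scaling in these shares was not tested.

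Other-motif sites were mostly marked in 1 tissue. Of those marked at 20 reads or more, 9134 of 16331 in 3' UTRs (55.9%) and 26160 of 35061 in the CDS (74.6%) were marked in 1 tissue only. For RAC the shares were 29.4% and 50.0%, and for GAT 34.6% and 63.5%. At the other end 279 sites of 3' UTRs (1.71%) and 205 of the CDS (0.585%) were marked in all 9 tissues, against 11.8% and 1.31% of RAC sites. Between 2 tissues the rank correlation of fractions across other-motif sites had a median of 0.402 over pairs of tissues in 3' UTRs and 0.348 in the CDS, while that of RAC sites was 0.718 and 0.437. These correlations run across sites, which share their libraries and differ in depth, and they are descriptions.

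The make-up of the marked sites changed with the tissue. GAA sites were 3.74% of marked other-motif sites in root and 23.5% in silique, and GAG sites 13.6% and 32.9%. TAC sites went the other way, at 33.6% in root and 13.2% in silique, as did AAT sites at 23.9% and 8.45%. The region changed as well, since CDS sites were 13465 of 42138 marked sites of every motif in root and 39471 of 63487 in silique. Within the CDS GAA sites were 270 of 3183 marked other-motif sites in root and 3553 of 12241 in silique. The change was not particular to other motifs, as marked GAT sites of the CDS numbered 939 in root and 7676 in silique. AAG sites stayed between 11.7% and 15.5%. Other-motif sites made up 22.5 ± 3.21% of the marked CDS and 3' UTR sites in flower, silique and seed, and 21.8 ± 2.51% in the other 6 tissues. This difference of 0.739 percentage points did not pass (two-sided exact permutation test, p = 0.738, smallest possible p 0.0238). Silique alone was highest at 26.2%, and rosette leaf lowest at 19.0%.

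Several named sites were read as fully methylated in every tissue. The TAC site of AT4G14320, a ribosomal protein gene of the large subunit, lay 59 nt after the stop codon and was at 1.00 in all 9 tissues at depths of 263 to 2332 reads. HMG1, which encodes an HMG-CoA reductase of sterol synthesis, had an AAG site at 1.00 in all 9 tissues. DHAR1, a dehydroascorbate reductase, had a TAG site at 1.00 in all 9 tissues at 505 to 3021 reads. The AAT site of ERMO2, a SEC24 coat protein of the secretory pathway, was at 1.00 in 8 tissues and at 0.679 in silique. The GAA site of CIPK26, a kinase that partners with calcium sensors, ran from 0.282 in seed to 0.783 in silique (mean 0.491 ± 0.158, n = 9 tissues), and the GAG site of the 3' UTR of AT5G53850 from 0.520 in rosette leaf to 0.664 in seedling. The highest GAG site of all, in the CDS of AT5G13560, ran from 0.525 in root to 1.00 in stem (mean 0.789 ± 0.148, n = 9 tissues). In UBQ3, which encodes polyubiquitin, an AAT site of the CDS ran from 0.352 in root to 0.961 in silique. Such sites were chosen for high values, so these levels are descriptions.

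The opposite pattern was a site at 1.00 in a single tissue. Among 11278 sites with at least 50 reads in all 9 tissues 785 covered the whole scale. The deepest of them by the fixed rule were a CAA site of AT2G34480, at 1.00 in rosette leaf only, one of HA1, a plasma membrane proton pump, at 1.00 in cauline leaf only, and a CAC site of VMA10, a subunit of the vacuolar proton pump, also at 1.00 in cauline leaf only. Depths were 254 to 3396 reads for these 3. A CAA site of HSP81-3 (stem) and a CAG site of AT1G25055 (shoot) behaved alike, but the 29 letters around them occurred 3 and 4 times in the genome, so their reads cannot be assigned to 1 gene with certainty.

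An inverted repeat surrounded many CDS sites. In the AAG and the TAG class the letters after the site often paired with letters before it, so that the site would be the last of 4 loop letters. At least 3 such pairs were found at 1785 of 4837 AAG sites of the CDS (36.9%), but at 1.29% of all AAG adenosines of the CDS of the same genes. For TAG it was 681 sites (30.7%), against 1.43% of adenosines, and for TAC 595 sites (21.3%), against 1.81%. Over all other-motif sites of the CDS it was 3965 of 37720 (10.5%), against 1.59% of adenosines. In 3' UTRs it was 782 of 16961 (4.61%), against 2.23%, with 23.5% of AAG and 30.4% of TAG sites but 3.01% of TAC sites. RAC sites of the CDS had it at 4.91%, against 1.84% of adenosines, and GAT sites at 1.33%, against 1.74%. GAA sites had it at 1.11%, below the 1.46% of their adenosines. The pattern was chosen after the values had been seen, and it is given without a test.

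The listing rate followed the number of pairs. Of 1000 AAG adenosines of the CDS 2.63 were listed with no pair, 6.41 with 1 pair, 33.1 with 2, 134 with 3, 322 with 4 and 500 (296 sites) with 5 or more. For TAG adenosines it was 3.10 with no pair and 476 with 5 or more, and for TAC adenosines 6.62 and 435. The share differed with the place of the site in the loop. In the CDS 10.5% of other-motif sites had 3 pairs with the site last of 4 loop letters, 2.68% with it at letter 3, 1.26% with it at letter 2 and 1.48% with it at letter 1, where adenosines were at 1.59% for the last letter and 1.60% for letter 3. With the site last in a loop of 3, 5 or 6 letters the shares were 3.20%, 1.98% and 1.33%. The highest share among the other loops tried was that with the site in the middle of 5 letters, 4.34%, against 1.65% of adenosines. For GAA (6.33%) and GAG (4.93%) it was above the share with the site last of 4 letters (1.11% and 2.21%).

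Sites in the repeat had higher fractions than the rest in every tissue. In the CDS the median of other-motif sites with 3 or more pairs was 0.499 in seedling, 0.488 in shoot, 0.225 in root, 0.246 in rosette leaf, 0.539 in cauline leaf, 0.357 in stem, 0.448 in flower, 0.655 in silique and 0.318 in seed. Without the repeat the medians ran from 0.0356 to 0.113, below the lowest value with it. The means were 0.419 ± 0.143 and 0.0680 ± 0.0258 (SD, n = 9 tissues). Within 3 classes the direction was the same in 9 of 9 tissues, at 0.510 with and 0.239 without the repeat for AAG, 0.574 and 0.254 for TAG, and 0.518 and 0.0943 for TAC. The classes that make up most CDS sites showed little of this, with 0.0598 with and 0.0674 without the repeat for GAA (lower in 9 of 9 tissues) and 0.0655 and 0.0592 for GAG (higher in 9 of 9). RAC sites of the CDS were at 0.193 with it and 0.112 without. GAT sites did not share this, at 0.0828 with it and 0.0888 without, lower in 9 of 9 tissues. Of the CDS other-motif sites marked in 5 or more tissues 778 of 1967 (39.6%) had the repeat, and of those marked in all 9 it was 101 of 205. In 3' UTRs it was 19 of the 279 sites marked in all 9.

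**Figure D4:**
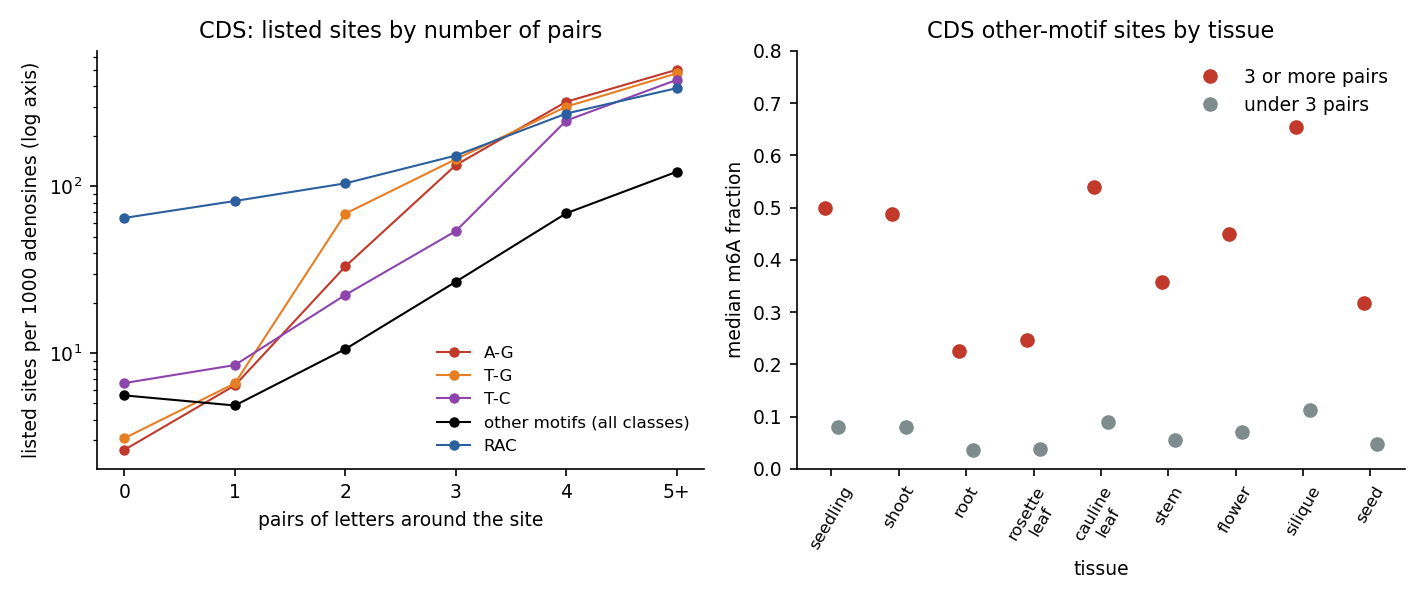
Left: listed sites per 1000 adenosines of the CDS (logarithmic axis) against the number of paired letters around the site, for 3 classes, all other motifs and RAC. Right: median m6A fraction of CDS other-motif sites with 3 or more pairs and with fewer, in each of the 9 tissues. The listing rate of A-G (AAG) sites runs from 2.63 with no pair to 500 with 5 or more, and the fractions with the repeat (0.225 to 0.655) lie above those without it (0.0356 to 0.113).

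The repeats printed above were at a fraction of 1.00 in all 9 tissues in mMDH1, a mitochondrial malate dehydrogenase (6 pairs, 14 nt after the stop codon, 188 to 1411 reads), in AT1G18540, a ribosomal protein gene (5 pairs, 121 to 1506 reads), and in AT5G60980, which has 8 pairs, of which 7 fall within the letters printed. TOM22-V, part of the import pore of mitochondria, was at 0.662 in root, 0.979 in rosette leaf and 1.00 in the other 7 tissues. In ECT2 the AAG site was marked in all 9 tissues, at depths of 202 to 894 reads. Its fraction was 0.797 in seedling, 0.716 in shoot, 0.350 in root, 0.498 in rosette leaf, 1.00 in cauline leaf, 0.603 in stem, 0.650 in flower, 1.00 in silique and 0.446 in seed. Root was thus lowest in both TOM22-V and ECT2. MjDim1 itself belongs to a family that reads a hairpin loop, and its part in these values was not tested.

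Other letters around the sites were looked up in the same way. URUAY centred on the site was found at 1472 TAC sites of 3' UTRs (24.3%), against 18.4% of TAC adenosines there. The fraction of TAC sites with it was 0.418 ± 0.0320 and that of TAC sites without it 0.453 ± 0.0338, and sites with it were lower in 9 of 9 tissues. The sequence TACAGAGAA, which METTL16 methylates in U6 snRNA of animals, held no listed site at its 4th letter among 71 such adenosines of 3' UTRs and 343 of the CDS, which allows up to 42.3 and 8.75 per 1000. That letter is of the CAG class, of which only 1.34 per 1000 adenosines of 3' UTRs and 2.11 per 1000 of the CDS were listed. So few adenosines would hold hardly any site at those rates, and the absence says nothing about this sequence. The poly(A) signal AATAAA overlapped 1.18% of other-motif sites of 3' UTRs, against 2.45% of their adenosines. Runs of 4 or more A held 7.98% of sites in 3' UTRs, against 15.5% of adenosines, and 3.91% in the CDS, against 8.89%. The place in the codon differed between classes as well. TAG sites were at the first letter of a codon in 35.9% and at the third in 64.1%, and none was at the second, where TAG would be a stop codon. The reading frame fixes this absence. Codon places of all TAG adenosines were not counted, so no preference can be read from these shares.

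In mta seedlings the fraction of other-motif sites of 3' UTRs was lower than in Col seedlings at 56.8% of sites and higher at 33.1%. A fall was counted where the mta fraction was at most 2/3 of the Col fraction, among sites with at least 20 reads in both genotypes and a Col fraction of at least 0.1. Over all listed sites of any motif and region 42.8% fell. Of other-motif sites of 3' UTRs 820 of 1488 fell (55.1%, 95% Wilson interval 52.6 to 57.6%), next to 48.8% of 3' UTR sites of every motif, 44.4% of RAC and 58.4% of GAT sites. A rise to 3/2 or more was seen at 145 sites (9.74%), next to 7.51% of 3' UTR sites of every motif. Over 1943 sites the median fraction was 0.223 in mta and 0.393 in Col, and the median difference was -0.0594. The mark was on 33.0% of these sites in mta and 51.3% in Col. Each genotype has 1 pooled value, so none of these differences has a replicate check, and the interval covers the number of sites only.

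The classes of 3' UTRs differed in size of the fall. Among AAT sites 282 of 466 (60.5%) fell, with a median difference of -0.172, and among TAC sites 243 of 522 (46.6%), with medians of 0.436 in mta and 0.730 in Col and a median difference of -0.108. Of 227 GAG sites 67.0% fell. Of 33 GAA sites 75.8% fell, while over all 114 GAA sites, without the minimum on Col, the median difference was 0.0761, higher in mta. The minimum of 0.1 in Col keeps sites that are high in Col, so a share of falls is not the whole of a class.

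In the CDS the share of falls was smaller. There 1194 of 2784 other-motif sites fell (42.9%, Wilson 41.1 to 44.7%), next to 37.8% of CDS sites of every motif, 35.4% of RAC and 40.0% of GAT sites. A rise was seen at 457 sites (16.4%), next to 16.7% of CDS sites of every motif. The median fraction over 5188 sites was 0.149 in mta and 0.112 in Col, with a median difference of 0.0251, higher in mta. The fall reached 61.7% of 673 GAG and 60.9% of 320 GAA sites with a Col fraction of at least 0.1, while over all sites of these classes with 20 reads in both genotypes 59.4% of 1828 GAG and 65.2% of 1021 GAA sites were higher in mta, with median differences of 0.0322 and 0.0482. It reached 30.8% of 971 AAG, 31.8% of 330 TAG and 27.3% of 161 TAC sites. With the inverted repeat 163 of 713 CDS sites fell (22.9%), and nearly as many, 155 (21.7%), rose. Over all 837 such sites with 20 reads in both genotypes the medians were 0.715 in mta and 0.596 in Col. Without the repeat 1031 of 2071 fell (49.8%) and 302 rose (14.6%). Over all 4351 sites without it the medians were 0.130 in mta and 0.0891 in Col, so the sites with and without the repeat differed in Col level. The part of this level in the shares of falls was not tested. The same order of falls held in 3' UTRs, with 32 of 98 (32.7%) and 788 of 1390 (56.7%), and for RAC sites of the CDS, with 24.1% and 36.2%. The CDS share depended on the sites used, at 20.8% of those marked in the seedling of the tissue series and 28.2% of those in both tables.

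**Figure D5:**
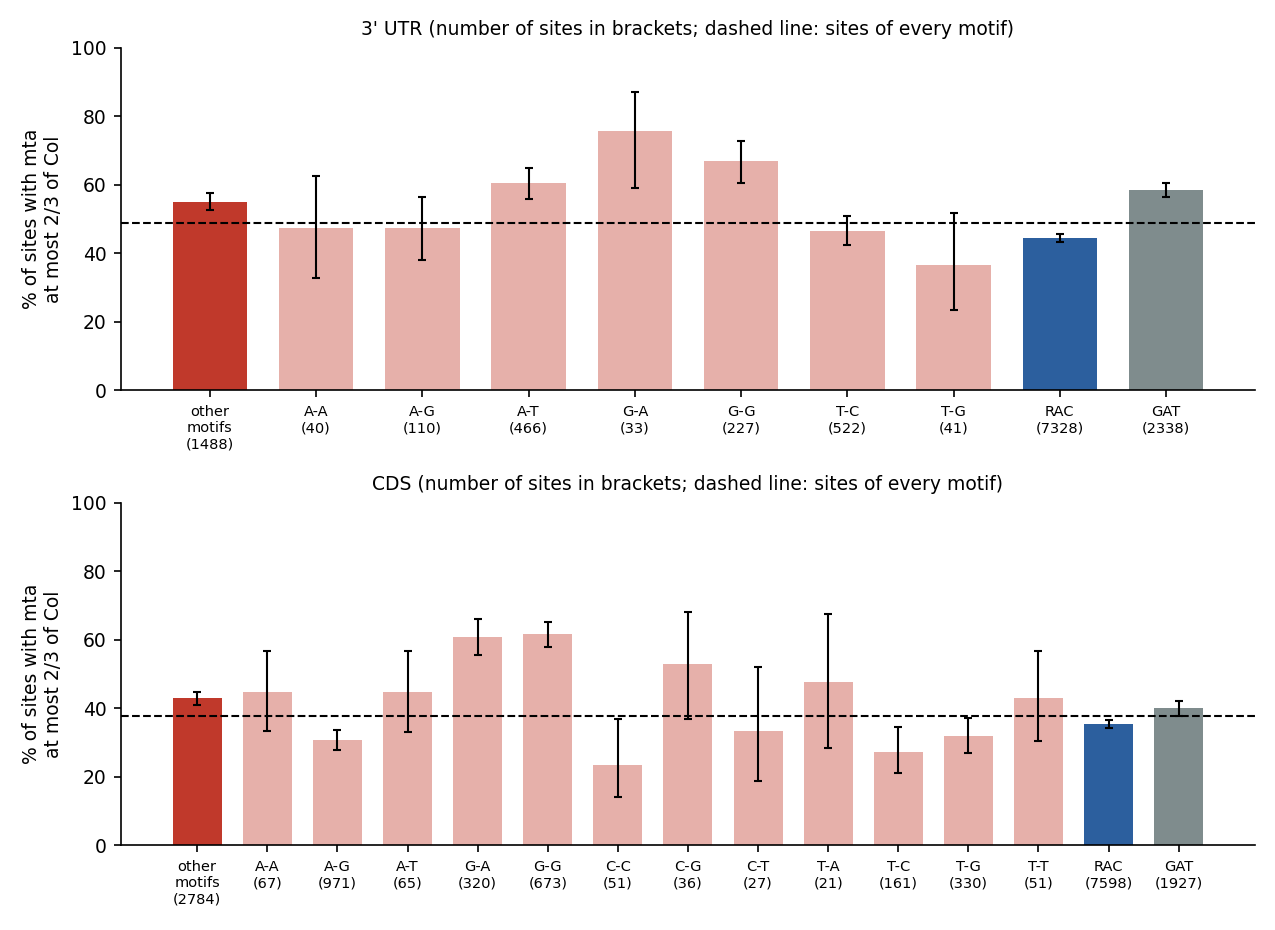
Percent of sites with an mta fraction of at most 2/3 of the Col fraction (vertical axes) for other motifs, their classes with enough sites, RAC and GAT, in 3' UTRs (top) and the CDS (bottom). Bars start at 0, error bars are 95% Wilson intervals over sites and not over replicates, and the dashed line is the share of sites of every motif (48.8% and 37.8%). Other motifs stand at 55.1% and 42.9%, and A-G, T-C and T-G stand under the dashed line of the CDS.

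A further Col value for the same sites came from the seedling of the tissue series, a separate set of plants. At 1288 other-motif sites of 3' UTRs with at least 0.1 there, mta was at most 2/3 of the series seedling at 43.3% and Col at 22.3%. At 1940 such sites of the CDS it was 26.3% for mta and 35.5% for Col. The fall of mta in 3' UTRs was thus seen against both Col values, while in the CDS Col itself fell more often than mta from the series seedling. Sites listed only in the mta experiment made up 28.7% of its other-motif sites in 3' UTRs and 55.9% in the CDS, where RAC had 4.11% and 23.7%.

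The largest differences between the genotypes ran from one end of the scale to the other. At least 50 reads in both genotypes were asked of these sites, and of the 2554 that had them 1181 were lower and 1147 higher in mta. The fraction was 0 in mta and 1.00 in Col at TAC sites of the 3' UTRs of PGM2, a cytosolic phosphoglucomutase, RPT2a, an ATPase subunit of the proteasome, and AT1G49140. The series seedling had 0.464, 1.00 and 0.850 at these 3 sites, so that it stood with Col in RPT2a and between the genotypes in PGM2. The same fall was read at AAG sites of the CDS of AT3G15690 and of NUC-L1, a nucleolin, where the series seedling had 0.558 and 0.224, in NUC-L1 nearer to mta than to Col. The converse, 1.00 in mta and 0 in Col, was read at a TAC site of the 3' UTR of RPT1A, where the series seedling had 1.00, at a TAC site of the CDS of RPT2a, where it had 0.111, and at an AAG site of the CDS of AT3G28550, where it had 0.423. RPT2a thus held a site at each end, 273 nt apart on chromosome 4. For reference the fallen site lay at chr4:14314430-14314450 and the risen one at chr4:14314157-14314177, both on the plus strand.
RPT2a, TAC, 3' UTR, chr4:14314430-14314450, plus strand: ttgttataATACTtttgcttc
RPT2a, TAC, CDS, chr4:14314157-14314177, plus strand: aggctggtCTACTagctctca

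Many genes held several other-motif sites. A marked one was found in 14062 genes, with a median of 3 sites, and 624 genes had 10 or more. AT1G02890 had 29 marked other-motif sites, 10 of them in its 3' UTR, beside 16 RAC and 9 GAT sites. BIG, a very large protein of auxin transport, had 27, beside 33 RAC and 14 GAT sites. ACC1, the acetyl-CoA carboxylase of the cytosol, had 26, beside 20 RAC and 5 GAT sites. SUS2, a PRP8 protein of the spliceosome, and AGY1, a SECA protein of chloroplasts, had 25 each. Beside these SUS2 had 22 RAC and 14 GAT sites, and AGY1 12 and 3.

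Among the genes of the m6A machinery ECT2 held the most other-motif sites, 9, beside 10 RAC and 4 GAT sites. All 9 were marked in some tissue at 20 reads or more. VIR held 8 (beside 15 RAC and 6 GAT), ECT4 5 (8 and 2), FIP37 4 (4 and 2) and ECT3 4 (8 and 7). MTA held 2 (10 and 3), MTB 2 (9 and 2) and HAKAI 2 (8 and 3), while FIO1 held none beside 5 RAC sites. Over all genes 54681 of 175160 listed CDS and 3' UTR sites were other-motif sites. ALKBH9B, a demethylase, held 3 that had no mark at that depth, and ALKBH10B, the other demethylase, 3 that had one. Apart from the AAG site of ECT2, none of the sites with the most marks in these genes was marked in more than 4 tissues. The AAG site of MTB lay in a repeat of 6 pairs and was at 0 in stem and at 0.560 to 1.00 in the other tissues, at 20 to 56 reads. VIR had a GAA site from 0.0904 in root to 0.568 in cauline leaf, HAKAI a GAG site from 0.0210 to 0.123, and ECT3 a GAA site from 0.0352 to 0.170, all 3 lowest in root and highest in cauline leaf. ALKBH10B had a TAC site in its 3' UTR from 0 in rosette leaf to 0.594 in seedling.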

How the data were processed

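Motif, region, depth and fraction were read from the site tables of the tissue series and the mta experiment. The authors made them with the m6A-SACseq pipeline on TAIR10. The aligner and counting tool were not given in the sources used here. The authors deposited, for each site and each tissue or genotype, a count of covering reads (depth), the m6A fraction after calibration on spike-ins with that motif, and a mark for a passed call. Both replicates are pooled, and mutated reads cannot be recovered. They also deposited raw counts of reads per gene for the tissue series and TPM for the mta experiment, used here for depth and marker genes. All marked sites had a fraction above 0.1.

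Members, gene lists and rules were chosen with earlier results of these data known. Sites of chromosomes 1 to 5 with a depth of at least 20 reads were used. The value of a tissue was the median fraction, or a share, over its sites. Differences were tested within tissues by two-sided exact sign-flip permutation over 9 tissues (smallest p 0.00390625), with Benjamini-Hochberg adjustment over 14 comparisons and over 26 class tests of classes with at least 10 sites. mta and Col were compared without a test. Letters, stop codons and all adenosines of the transcripts came from RefSeq TAIR10.1, whose nuclear sequence matched the deposited motif at 100% of sites. Inverted repeats were counted in 14 letters on each side. The sites named were, by rule, the highest of each class with the mark in the most tissues, the 5 with the largest range over tissues at 50 reads, the 5 largest falls and 3 largest rises in mta at 50 reads, the 5 genes with the most marked sites, and those in genes of the m6A machinery. The examples of the repeat were chosen after the values were seen, 3 of them as the deepest with 5 or more pairs and a fraction of 1 in every tissue and 3 from the rules above, as were the GAG site shown for 3' UTRs and the AAT site of UBQ3.

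Alternatives were depths of 10 and 50 reads, marked sites only, the mean over sites, leaving out each tissue, another threshold for a fall, and, chosen after seeing the data, sites of both tables and sites without the repeat. The test and the count of pairs were tested on simulated data. Python 3.11.15 was used with NumPy 2.4.6, SciPy 1.17.1, pandas 2.3.3 and matplotlib 3.10.9.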

Additional observations from a re-analysis of the deposited data

Results flagged for a closer look

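Of 37 values over the 9 tissues that were examined for 1 tissue standing apart by Dixon's ratio, 5 did so. Chance gives about 1 in 20 among values that were not chosen, but the single sites here were picked for their marks and high fractions. In ERMO2 and TOM22-V most tissues were at 1.00, so that any lower tissue stands apart. No excess over chance can therefore be read from the 5. The median fraction of TAC sites of the CDS was 0 in rosette leaf and 0.131 to 0.244 in the other tissues. The share of CDS other-motif sites at a fraction of 0 was 35.7% in rosette leaf and 17.3 to 26.5% in the others. Rosette leaf also had the lowest median depth of these sites, 60 reads, and the part of depth in both values was not tested. The AAT site of ERMO2 was at 0.679 in silique and at 1.00 in the other 8 tissues. The CAC site of TOM22-V was at 0.662 in root and at 0.979 to 1.00 elsewhere. The AAG site of MTB, which the annotation names EMB1691, was at 0 in stem and at 0.560 to 1.00 elsewhere.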

How the results depend on the processing

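No paired analysis was possible because the site columns pool the replicates and carry no replicate number. Of 214 alternative values of the 14 comparisons with RAC or GAT 202 kept direction and side of the threshold. Leaving out each tissue changed none of them, and their smallest p was then 0.0078125. With marked sites only, the 3' UTR median difference from RAC was -0.0317 (exact permutation test, adjusted p = 0.0608) and that of the share at 1 was -0.165, both no longer past the threshold, the CDS medians turned to 0.145 and 0.197, and all 4 shares at 0 became a difference of 0, since no marked site is at 0. The CDS medians also turned with the mean over sites (0.0223 and 0.0775) and with sites of both tables (0.0882 and 0.120). The share of marked sites in flower, silique and seed less that in the other tissues was -0.604 with a fraction above 0.1 in place of the mark, and -1.11 to 1.81 when each tissue was left out, the lowest without silique.

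Of 50 alternative class values 27 kept their call. At 50 reads the difference from RAC turned to 0.0642 for CAC and 0.0149 for TAC in 3' UTRs and to 0.0177 for CAA, 0.0159 for CAG and 0.0652 for CAT in the CDS, and that of AAT in the CDS was -0.00101. With marked sites only it turned in 3' UTRs to 0.274 for AAA, 0.162 for AAG, 0.323 for CAC, 0.359 for CAG, 0.169 for TAA, 0.257 for TAC, 0.265 for TAG and 0.308 for TAT, and in the CDS to 0.275 for AAT, 0.791 for CAA, 0.790 for CAG, 0.790 for CAT and 0.639 for TAA. In the CDS TAC passed with 0.0916 at 50 reads and 0.716 with marked sites, and TAT with 0.105 and 0.781.

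The median mta minus Col fraction in 3' UTRs was -0.0847 at 50 reads, -0.0920 at sites marked in the series seedling and -0.0969 at sites of both tables, and in the CDS 0.00665 at sites marked in the series seedling and 0.0136 at sites of both tables. The share of falls in 3' UTRs was 46.7% at sites marked in the series seedling, 51.1% at sites of both tables and 43.1% with a threshold of 1/2. In the CDS it was 44.8% at 10 reads, 36.6% at 50 reads, 20.8% at sites marked in the series seedling, 28.2% at sites of both tables, 36.0% with a threshold of 1/2 and 49.8% without the repeat. The cause of these changes was not tested. Precision is limited by 1 pooled value per tissue, by depths near 60 to 117 reads, and by fractions whose mutated reads are not known.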
